A study of Mus musculus with 16 samples.

Results

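The genes described here encode the subunits of the mitochondrial respiratory chain, the ATP synthase and the mitochondrial ribosome that are transcribed in the nucleus. They were chosen by symbol from the RefSeq annotation of mm10 as protein-coding genes named Nduf, Sdha to Sdhd, Uqcr, Cox4 to Cox8, Atp5, Mrpl or Mrps, which gave 174 genes, and 25 pseudogenes with such symbols were left out. Of these, 173 had a curated transcript and were compared with all 20923 nuclear protein-coding genes that had one. Ndufb4b, a gene with predicted transcripts alone, had no peak in any of the 12 peak lists and was left out of the counts. The 173 genes comprised 40 complex I subunit genes, 8 complex I assembly factor genes (Ndufaf), 4 complex II genes, 8 complex III genes, 18 complex IV genes, 17 complex V genes, 49 genes of the large subunit of the mitochondrial ribosome (Mrpl) and 29 of its small subunit (Mrps). The families follow the symbols alone, the Mrpl and Mrps families included, and the present assignment of each product was not checked. Ndufa4, for example, was counted with complex I although its product is now assigned to complex IV.

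Chromatin immunoprecipitation with sequencing (ChIP-seq) had been performed on splenic CD8+ T cells of OT1 mice, which carry a transgenic T cell receptor against an ovalbumin peptide. The cells were activated through CD3 and CD28 with IL-2 for 48 h and expanded in IL-2 for 3 days. GSK2879552 (GSK), which inhibits LSD1, was kept in the medium at 0.5 μM through both steps, and the control cells received vehicle (Veh) over the same time. RNA polymerase II (Pol II), LSD1 and the histone marks H3K4me3, H3K27ac, H3K4me2 and H3K4me1 were each precipitated in 1 library per treatment, which gave 12 peak lists, and the 4 input libraries had no peak list. Every Veh and GSK value below therefore stands for a single library, no difference between them has a replicate check, and no test was possible. Library and treatment cannot be told apart. All groups shared strain, activation and expansion, and the number of animals behind a library was not given in the sources used here.

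Oxidative phosphorylation passes electrons from NADH and succinate through complexes I to IV to oxygen, and complex V uses the resulting proton gradient to make ATP. A few core subunits are encoded by mitochondrial DNA and made on the mitochondrial ribosome, whose proteins are all encoded in the nucleus, as are most subunits of the complexes. Activated T cells make new mitochondria, and the promoters of these genes are known for binding sites of NRF1, of the ETS factor GABP and of YY1. The histone demethylase LSD1 acts on H3K4me1 and H3K4me2 and not on H3K4me3, which marks promoters that are open or in use, while H3K27ac marks active promoters and enhancers.

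A gene was counted as carrying a mark when a peak overlapped by at least 1 bp the window from 1 kb before to 1 kb after any of its transcription start sites (TSSs), of which the 173 genes had 189. Where several peaks did, the one of highest fold gave the gene's value. The lists held between 2751 peaks (GSK H3K27ac) and 40272 peaks (GSK H3K4me1), and they give no read numbers. By the read totals in the supplement of the study, the Veh library was much the deeper for H3K27ac and somewhat deeper for H3K4me2 and LSD1, and the GSK library was the deeper for H3K4me1, Pol II and, slightly, H3K4me3. The part of depth in the differences below was not tested. For H3K27ac the GSK list was the shorter, with 2751 peaks against 7410 in Veh, and for H3K4me2 it held 9437 against 15219, whereas the lists of LSD1 (21252 in Veh, 19919 in GSK) and Pol II (15638 and 15401) were close in length. The LSD1 and Pol II lists went down to a −log10 p of 3.00 to 3.01 and the histone lists to a −log10 q of 3.01 to 3.03, so presence is not on one scale across antibodies. As a check of the cell type, all 10 CD8+ T cell marker genes had H3K4me3 at the TSS in both treatments, and so had 1 of 2 CD4+ T cell, 1 of 5 B cell, 0 of 2 NK cell and 2 of 3 erythroid marker genes. Of 6 myeloid marker genes, 2 had it in Veh and 1 in GSK. Intervals below are Wilson intervals of 95% over genes and cover counting error only, and those of a difference rest on the genes with a peak in 1 treatment alone. Neighbouring genes that share a window are not independent.

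Promoter sequences were available for 146 of the 173 genes, as 300 bases around the start in the RefSeq table of GRCm38.p6 (the mm10 assembly), and they were searched for motifs known from this gene class. The NRF1 core GCATGCGC was found on either strand in 20 of the 146 promoters (13.7%, 95% interval 9.05 to 20.2), against 3.80% of all 16783 promoters and 5.89% of the 9557 promoters of genes with H3K4me3 in both treatments. The ETS motif CCGGAAGT stood in 17 (11.6%, 7.4 to 17.9, an interval that includes the second background) against 5.59% and 9.22%. The YY1 motif AAGATGGCG stood in 15 (10.3%, 6.33 to 16.3) against 2.01% and 3.39%. The GC-box GGGGCGGGG was at 17.1% against 16.2% and 23.9%, and the E-box CACGTG at 7.53% against 8.25% and 10.6%. The palindromic cyclic AMP response element TGACGTCA was present in 4.11% against 2.37% and 3.47%, CCAAT in 41.8% against 39.6% and 39.2%, TATAAA in 8.22% against 13.2% and 6.53%, and the E2F motif TTTCCCGC in 0.685% against 1.52% and 2.32%. No test was made of these shares, and a match of letters is a description and not a binding site.

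The promoters below run 5′ to 3′ from 100 bases before to 49 bases after the TSS, with NRF1, ETS and YY1 matches on either strand in capitals and all other letters, matches to the other motifs included, in lower case. Those of Uqcr11, Mrpl33 and Mrps27 were chosen, after the motif search, because each holds a pair of the motifs. Atp5g2 and Ndufc1, and Mrpl52 and Mrpl42, are genes described further on for their peaks.
Uqcr11, chr10:80406772-80406921, minus strand: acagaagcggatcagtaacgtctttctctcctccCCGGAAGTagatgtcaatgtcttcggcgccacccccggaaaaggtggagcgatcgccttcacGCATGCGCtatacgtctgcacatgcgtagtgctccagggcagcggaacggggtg
Mrpl33, chr5:31613851-31614000, plus strand: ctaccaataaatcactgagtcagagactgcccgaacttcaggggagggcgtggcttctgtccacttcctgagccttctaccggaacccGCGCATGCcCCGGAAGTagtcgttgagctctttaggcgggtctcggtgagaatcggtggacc
Mrps27, chr13:99344686-99344835, plus strand: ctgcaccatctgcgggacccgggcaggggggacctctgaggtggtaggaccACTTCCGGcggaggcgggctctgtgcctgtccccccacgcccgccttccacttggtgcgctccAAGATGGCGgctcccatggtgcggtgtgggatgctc
Atp5g2, chr15:102670998-102671147, minus strand: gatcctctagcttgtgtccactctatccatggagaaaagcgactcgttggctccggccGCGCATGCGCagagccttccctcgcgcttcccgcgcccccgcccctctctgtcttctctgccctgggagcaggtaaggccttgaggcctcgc
Ndufc1, chr3:51408906-51409055, minus strand: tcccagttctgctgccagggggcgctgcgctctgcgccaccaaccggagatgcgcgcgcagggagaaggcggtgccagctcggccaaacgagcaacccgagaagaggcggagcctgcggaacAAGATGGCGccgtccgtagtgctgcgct
Mrpl52, chr14:54426809-54426958, plus strand: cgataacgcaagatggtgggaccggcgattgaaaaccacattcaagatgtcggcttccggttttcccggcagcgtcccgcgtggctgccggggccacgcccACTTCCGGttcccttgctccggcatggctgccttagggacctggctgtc
Mrpl42, chr10:95501900-95502049, minus strand: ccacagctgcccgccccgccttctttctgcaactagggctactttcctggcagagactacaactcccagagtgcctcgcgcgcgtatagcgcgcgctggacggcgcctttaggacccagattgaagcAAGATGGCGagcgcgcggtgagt
In Uqcr11, a complex III subunit gene, the ETS match began 66 bases before the start and the NRF1 match 4 bases before it. In Mrpl33 the NRF1 match began 12 bases and the ETS match 3 bases upstream. In Mrps27 the ETS match began 49 bases upstream, and the YY1 match lay 14 bases downstream of the start. The 2 NRF1 matches of Atp5g2, at 42 and 40 bases upstream, overlap, since one is read on each strand of the same run of letters. The YY1 match lay 22 bases downstream of the start in Ndufc1 and 27 bases downstream in Mrpl42, and the ETS match of Mrpl52 began 1 base downstream.

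H3K4me3 and Pol II marked most of these promoters in both treatments. H3K4me3 was present at 166 of 173 genes (96.0%, 95% interval 91.9 to 98.0) in Veh and at the same 166 in GSK, against 56.4% and 57.7% of all genes. None of the 173 had H3K4me3 in one treatment alone, against backgrounds of 0.32% in Veh only and 1.53% in GSK only. Pol II was present at 136 genes (78.6%, 71.9 to 84.1) in Veh and at 116 (67.1%, 59.7 to 73.6) in GSK, against 33.2% and 28.2% of all genes. Restricting both sides to genes with H3K4me3 in both treatments, Pol II stood at 81.9% of 166 mitochondrial genes against 58.3% of 11742 genes in Veh, and at 69.9% against 49.4% in GSK. Pol II was in the Veh list only at 29 genes (16.8%, background 8.3%, or 14.1% of genes with H3K4me3). It was in the GSK list only at 9 (5.20%, background 3.31%, or 5.23%) and in both at 107. Of the 136 genes with Pol II in Veh, 78.7% (71.1 to 84.7) also had it in GSK, against 75.8% at genes with H3K4me3. The GSK share was 11.6 points below the Veh share at these genes and 4.99 points below it at all genes. The values were 11.6 and 4.97 points when the longer Pol II list was cut to the length of the shorter. With H3K4me3 in both treatments on either side, the difference was −12.0 points (−16.9 to −4.94) against −8.85, which lies inside that interval. Among peaks with a −log10 q of at least 4 the Pol II share was 17.9 points lower in GSK at the mitochondrial genes. The difference over all genes at that cut was not computed, so this value has no background.

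**Figure D1:**
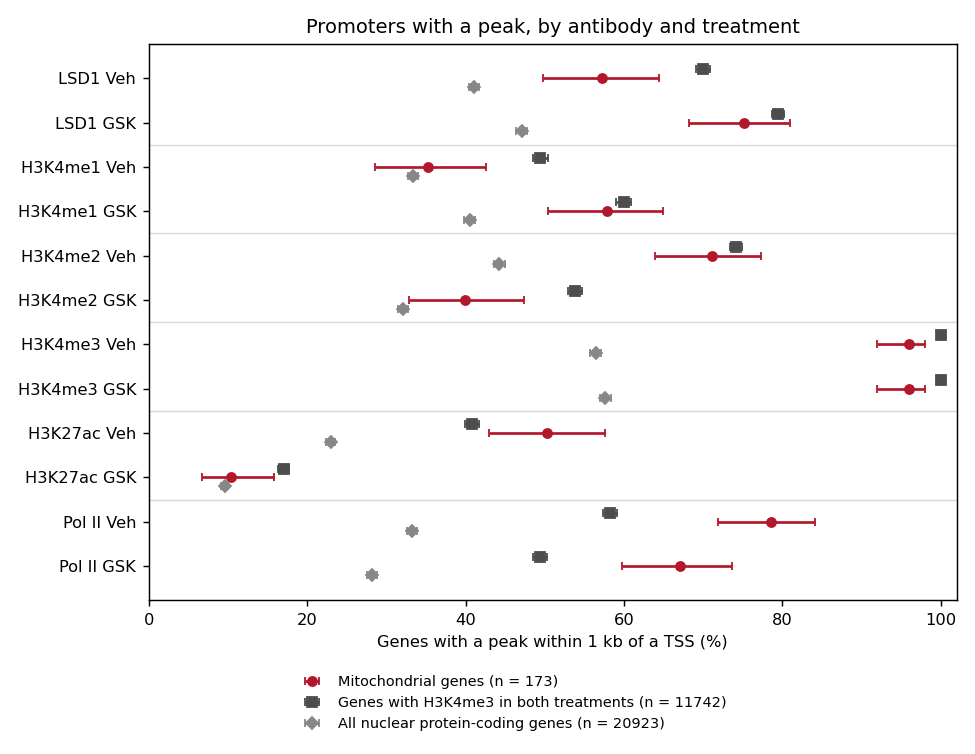
Share of genes (percent, x axis) with a peak within 1 kb of a TSS for each antibody in Veh and GSK (rows), for the 173 mitochondrial genes (circles), the 11742 genes with H3K4me3 in both treatments (squares) and all 20923 genes (diamonds), with bars for Wilson 95% intervals. The mitochondrial share was 96.0% for H3K4me3 in both treatments, was higher in GSK for LSD1 (57.2% to 75.1%) and H3K4me1 (35.3% to 57.8%), and lower in GSK for H3K4me2, H3K27ac and Pol II.

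LSD1 itself was found at more of these promoters in the GSK cells. LSD1 peaks lay at 99 genes (57.2%, 49.8 to 64.4) in Veh and at 130 (75.1%, 68.2 to 81.0) in GSK, against 41.1% and 47.1% of all genes. Among genes with H3K4me3 in both treatments the mitochondrial share was the lower one in Veh (59.6% against 70.0%) and close to it in GSK (78.3% against 79.5%). The peak was in the GSK list only at 45 genes (26.0%, background 10.9%, or 16.7% of genes with H3K4me3), in the Veh list only at 14 (8.09%, background 4.87%, or 7.23%), in both at 85 and in neither at 29. The GSK share was thus 17.9 points higher (9.57 to 24.1), against 5.99 points at all genes, although the GSK list was the shorter of the pair. With both lists cut to equal length the difference was 19.7 points (11.4 to 25.6), against 6.84 points at all genes and 10.8 points at genes with H3K4me3. Among peaks with a −log10 q of at least 4 the shares were 35.3% and 45.7%, a difference of 10.4 points, and the value over all genes was not computed. No LSD1 peak of either treatment lay at a gene of the set that lacked H3K4me3.

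The 3 strongest LSD1 peaks seen in GSK only belonged to genes of the large ribosomal subunit. Mrpl52 had a peak of 7.98-fold over the local background (−log10 p of 18.8) at chr14:54426732-54427194, with its summit 8 bp downstream of the TSS. Mrpl42 had one of 8.11-fold (17.6) and Mrpl10 one of 6.98-fold (13.3), with summits 60 and 83 bp downstream. Among the strongest in Veh only, Mrpl30 had a peak of 5.02-fold (8.1) and Mrpl1 one of 4.88-fold (8.5), both below those values. The median −log10 p of the GSK-only LSD1 peaks was 6.92, against 8.44 for GSK peaks at genes that also had one in Veh, so peaks absent from the other list lay nearer to the threshold. The highest fold of the set in both LSD1 lists belonged to Cox5b, a complex IV subunit gene. It was 7.97-fold in Veh at chr1:36690954-36691487 (percentile 96.0 among all genes with a peak in that list) and 10.3-fold (percentile 98.5) in GSK.

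Of the methylation states that LSD1 removes, H3K4me1 was at more of these genes in GSK and H3K4me2 at fewer in the lists as deposited. The lower H3K4me2 share did not hold at equal list length. H3K4me1 was present at 61 genes (35.3%, 28.5 to 42.6) in Veh and at 100 (57.8%, 50.4 to 64.9) in GSK, against 33.4% and 40.5% of all genes. Among genes with H3K4me3 in both treatments, the mitochondrial share was the lower one in Veh (35.5% against 49.4%) and close to it in GSK (59.6% against 59.9%). H3K4me1 was in the GSK list only at 54 genes (31.2%, background 10.8%, or 16.3% of genes with H3K4me3) and in the Veh list only at 15 (8.67%, background 3.7%). The difference was 22.5 points (13.7 to 29.0), against 7.15 at all genes. At equal list length it was 15.0 points (6.09 to 22.3), against 2.12 at all genes and 3.14 at genes with H3K4me3. H3K4me2 was present at 123 genes (71.1%, 63.9 to 77.3) in Veh and at 69 (39.9%, 32.9 to 47.3) in GSK, against 44.3% and 32.1% of all genes. With H3K4me3 in both treatments on either side, the shares were 74.1% against 74.1% in Veh and 41.0% against 53.8% in GSK. H3K4me2 was in the Veh list only at 65 (37.6%, background 14.3%, or 23.3% of genes with H3K4me3) and in the GSK list only at 11 (6.36%, background 2.1%, or 3.03%). This difference of −31.2 points turned to 2.31 points (−5.86 to 10.2) when the Veh list was cut to the length of the GSK list, so the data give no direction for H3K4me2 apart from the shorter GSK list.

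H3K4me1 in GSK only was not limited to genes where LSD1 was also in GSK only. It was found at 30 of the 85 genes with LSD1 in both treatments (35.3%), at 14 of the 45 with LSD1 in GSK only (31.1%) and at 8 of the 29 with LSD1 in neither (27.6%), against 17.0%, 14.2% and 5.07% of all genes in the same classes. With LSD1 in Veh only it was found at 2 of 14 (14.3%), against 14.6%. The last of the 3 classes named first is not alike on the 2 sides. In Veh, H3K4me3 was at 75.9% of the 29 genes with LSD1 in neither and at 15.9% of all genes in that class. Of the 54 genes with H3K4me1 in GSK only, 41 (75.9%) had H3K4me2 in Veh, close to the 71.1% of the 173 that did. The H3K4me1 peaks lay off the start sites, with 8.20% of peak centres in Veh and 8.0% in GSK within 250 bp of the TSS, against 21.9% and 20.3% at genes with H3K4me3, and in a window of 500 bp the H3K4me1 difference was 5.78 points. The H3K4me1 peaks of Cox5b, at 6.64-fold (percentile 99.5) in Veh and 6.36-fold (98.8) in GSK, ranked near the top of both lists. Mrpl15 had the highest H3K4me2 fold in GSK, 7.67-fold (percentile 98.5) against 4.86-fold in Veh, and a 6.99-fold H3K4me1 peak in GSK only. Mrpl11 had the highest H3K4me2 fold in Veh, 6.05-fold against 5.46-fold in GSK, without LSD1 or Pol II in either treatment.

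H3K27ac was present at 87 genes (50.3%, 42.9 to 57.7) in Veh and at 18 (10.4%, 6.68 to 15.8) in GSK, against 23% and 9.56% of all genes. It was in the Veh list only at 69 genes (39.9%, background 13.8%, or 24.5% of genes with H3K4me3) and in the GSK list only at 0 (background 0.392%). Among genes with H3K4me3 in both treatments, the share was 52.4% against 40.8% in Veh and 10.8% against 17.0% in GSK. The GSK list was also the shorter one, and the reason for its length was not tested. With the Veh list cut to its 2751 strongest peaks the shares were 20.2% and 10.4%, a difference of −9.83 points (−13.8 to −3.65) against −0.54 at all genes. At this cut, H3K27ac was at 25 in Veh and 13 in GSK of the 70 genes that shared a window with another TSS (−17.1 points, −22.7 to −5.54). Of the 103 that shared none it was at 10 and 5 (−4.85 points, −9.42 to 1.93, which includes no difference). The peaks seen in Veh only had a median −log10 p of 9.0, and 3 of the 69 lay below the weakest peak of the GSK list (6.47). Pol II was in both lists at 52 of these 69 genes (75.4%), against 61.8% of the 173. The Veh library for H3K27ac was also much the deeper.

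**Figure D2:**
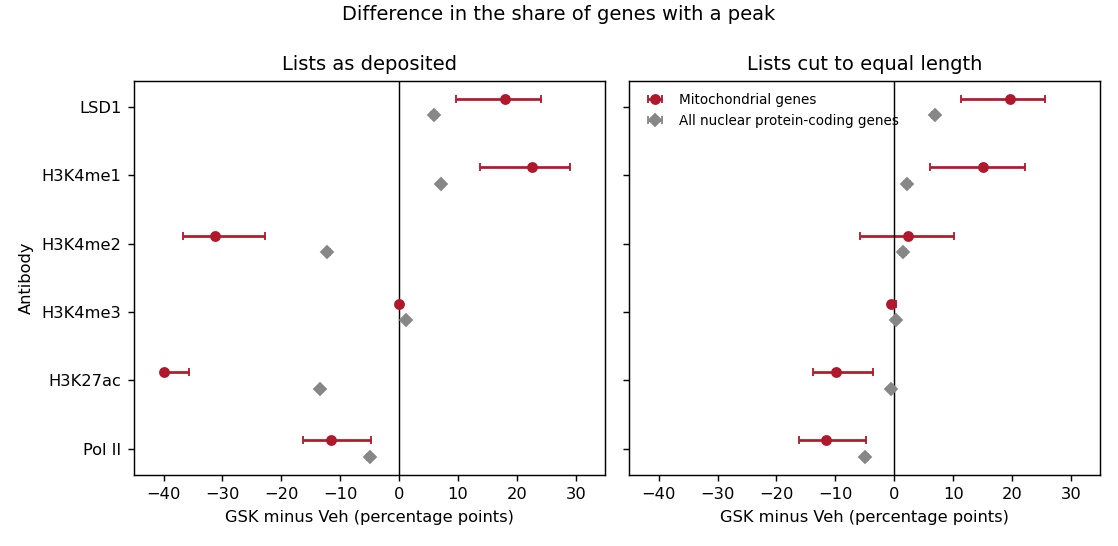
Difference in the share of genes with a peak, GSK minus Veh in percentage points (x axis), for each antibody (rows) at the mitochondrial genes (circles) and all genes (diamonds), with the lists as deposited (left) and with the longer list of each pair cut to its strongest peaks (right). Bars are 95% intervals over the genes with a peak in 1 treatment. At the mitochondrial genes LSD1 stayed at 17.9 and 19.7 points, H3K4me1 at 22.5 and 15.0, and Pol II at −11.6 in both, whereas H3K4me2 went from −31.2 to 2.31 and H3K27ac from −39.9 to −9.83.

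The 18 genes with H3K27ac in both treatments were Ndufb1, Uqcrq, Cox7c, Atp5c1, Atp5g2, Atp5j, Atp5l, Mrps34 and 10 Mrpl genes (Mrpl4, Mrpl13, Mrpl18, Mrpl21, Mrpl32, Mrpl40, Mrpl41, Mrpl51, Mrpl53 and Mrpl57). Of these, 13 (72.2%) shared their window with the TSS of another gene, against 49 of the 87 genes with H3K27ac in Veh and 40.5% of the 173. This share was not computed over all genes with H3K27ac. Atp5j, for example, starts beside Gabpa, the gene of a GABP subunit, so their peaks cannot be told apart. Mrpl41 had the highest H3K27ac fold of the set in GSK, 6.10-fold (percentile 84.4) at chr2:24975357-24975815, against 4.92-fold in Veh. Mrps5 had the highest in Veh, 7.00-fold (percentile 99.1) at chr2:127587207-127587508, and no H3K27ac peak in GSK, with LSD1 at 5.21-fold in Veh and 6.08-fold in GSK and no Pol II in either. Altogether 22 genes carried H3K4me3 without Pol II or H3K27ac in Veh and 48 in GSK. These were 13.3% and 28.9% of the 166 genes with H3K4me3, against 36.9% and 48.5% of all genes with H3K4me3, and 12.7% and 27.7% of the 173, against 21% and 28.7% of all genes.

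**Figure D3:**
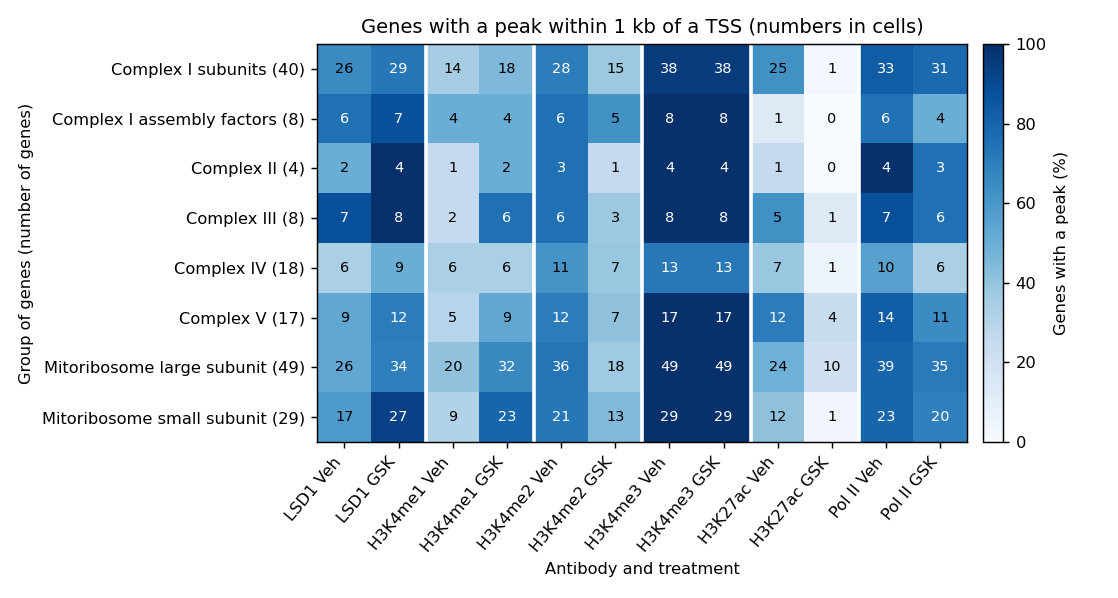
Number of genes with a peak within 1 kb of a TSS (printed in each cell) and their share of the family (colour, percent) for each antibody and treatment (columns) in the 8 gene families (rows, with family size). LSD1 was at more genes in GSK in all 8 families, from 17 to 27 of 29 in the small ribosomal subunit, and H3K27ac at 10 genes or fewer of each family in GSK.

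The family counts below can be read against the shares among genes with H3K4me3 in both treatments. In Veh and GSK these shares were 70.0% and 79.5% for LSD1, 49.4% and 59.9% for H3K4me1, 74.1% and 53.8% for H3K4me2, 40.8% and 17.0% for H3K27ac, and 58.3% and 49.4% for Pol II.

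Complex I takes electrons from NADH. Of its 40 subunit genes, 38 had H3K4me3 in both treatments, 33 had Pol II in Veh and 31 in GSK, and 26 and 29 had LSD1. H3K4me1 was at 14 in Veh and 18 in GSK and H3K4me2 at 28 and 15, while H3K27ac was at 25 in Veh and at 1 in GSK, Ndufb1. With lists of equal length these counts were 14 and 14, 16 and 15, and 10 and 1. Ndufs1 and Ndufv1 encode core subunits that carry iron-sulfur clusters. Ndufs1 had Pol II at 8.57-fold in Veh and 5.67-fold in GSK, and LSD1 in GSK only at 3.66-fold. Ndufv1 had Pol II at 7.17-fold and 6.24-fold, and LSD1 in GSK only at 5.15-fold. Both thus had Pol II in both lists and LSD1 in 1 of them. Ndufab1, the mitochondrial acyl carrier protein, had LSD1 at 5.60-fold and 5.28-fold and no Pol II. Ndufa4 had LSD1 at 5.43-fold and 6.70-fold and Pol II at 4.13-fold and 3.12-fold. The highest Pol II fold in Veh and in GSK belonged to Ndufa2, an accessory subunit, with 11.6-fold (percentile 97.5) and 9.09-fold (percentile 96.8). Ndufc1, another accessory subunit, had the highest H3K4me3 fold in Veh, 11.5-fold (percentile 99.4) at chr3:51408280-51409017, against 11.6-fold in GSK. Its Pol II peaks were 4.90-fold and 4.63-fold and it had no LSD1 peak.

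Ndufa13 had peaks in 11 of the 12 lists, the most among complex I subunits. The 8 assembly factor genes, whose products build complex I without staying in it, all had H3K4me3, with LSD1 at 6 in Veh and 7 in GSK and Pol II at 6 and 4. H3K4me1 was at 4 of them in both treatments, H3K4me2 at 6 and 5, and H3K27ac at 1 and 0. Ndufaf8 had peaks in 9 lists and Ndufaf6 in 6, without Pol II. Complex II, succinate dehydrogenase, also belongs to the citric acid cycle, and its 4 genes had H3K4me3 in both treatments. Sdha, the flavoprotein, had LSD1 at 4.87-fold in Veh and 3.69-fold in GSK and Pol II at 5.44-fold and 4.93-fold. Sdhb, the iron-sulfur subunit, had LSD1 at 3.91-fold and 4.53-fold and Pol II at 6.80-fold and 4.51-fold. It was the complex II gene with H3K27ac, at 4.78-fold in Veh. The membrane anchors Sdhc and Sdhd had LSD1 in GSK only, at 3.71-fold and 4.41-fold. Pol II was in both lists at Sdhc, at 4.48-fold and 3.91-fold, and in Veh only at Sdhd, at 4.19-fold.

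Complex III passes electrons to cytochrome c. All 8 of its genes had H3K4me3 and LSD1 in GSK, and 7 had LSD1 in Veh, the exception being Uqcr10 (6.08-fold in GSK). H3K4me1 was at 2 genes in Veh and 6 in GSK, with Uqcrb, Uqcrc2, Uqcrfs1 and Uqcrq in GSK only. H3K4me2 was at 6 and 3, H3K27ac at 5 and 1, and Pol II at 7 and 6. Uqcrfs1, the Rieske iron-sulfur protein, was in 10 lists, with LSD1 at 4.16-fold in Veh and 5.85-fold in GSK and Pol II at 4.70-fold and 3.48-fold. Uqcrc1, a core protein, had LSD1 at 3.38-fold and 3.86-fold and Pol II at 8.83-fold and 4.83-fold.

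Complex IV, cytochrome c oxidase, has several subunits with isoforms for particular tissues, and it held 5 of the 7 genes without H3K4me3. Of its 18 genes, 13 had H3K4me3 in both treatments, 10 had Pol II in Veh and 6 in GSK, and 6 and 9 had LSD1. H3K4me1 was at 6 in both, H3K4me2 at 11 and 7, and H3K27ac at 7 and 1. Cox4i1, the common isoform of subunit 4, had LSD1 at 7.33-fold in Veh and 6.01-fold in GSK and Pol II at 7.83-fold and 4.88-fold. Its counterpart Cox4i2, known from lung, had no H3K4me3, LSD1 or Pol II, but H3K4me1 at 5.94-fold (percentile 97.2) in Veh and 7.01-fold (percentile 99.7) in GSK, the latter at chr2:152753860-152754692, and H3K4me2 at 5.35-fold in GSK only. Cox6a1 had LSD1 at 3.55-fold and Pol II at 6.56-fold, both in Veh only, whereas the muscle isoform Cox6a2 had no peak in any list. Cox6b1 had H3K4me3 at 10.3-fold in Veh and 10.7-fold in GSK and Pol II at 3.84-fold in Veh only, and the testis isoform Cox6b2 had H3K4me3 at 5.14-fold and 5.65-fold and no Pol II.

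The isoforms of subunit 7a differed likewise. Cox7a1, of heart and muscle, had H3K4me3 at 5.40-fold in Veh and 4.34-fold in GSK, without LSD1 or Pol II. Cox7a2, the common isoform, had Pol II at 5.86-fold and 3.32-fold and LSD1 at 4.63-fold in GSK only. Cox7a2l, whose product takes part in respiratory supercomplexes, had LSD1 at 4.14-fold and Pol II at 5.0-fold in Veh only. Cox7b had H3K4me3 alone, at 4.92-fold and 5.07-fold, and Cox7b2 had no peak in any list. Pol II was in both lists at 6 complex IV genes, and its fold percentile was lower in GSK at 6 of the 6, against 2894 of 5207 among all genes. Such counts for every family stand further on, with the peak strengths.

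The subunit 8 genes Cox8a and Cox8b differed in promoter sequence as well. Both are given with CpG dinucleotides in capitals, over the same span from the TSS as above.
Cox8a, chr19:7217567-7217716, minus strand: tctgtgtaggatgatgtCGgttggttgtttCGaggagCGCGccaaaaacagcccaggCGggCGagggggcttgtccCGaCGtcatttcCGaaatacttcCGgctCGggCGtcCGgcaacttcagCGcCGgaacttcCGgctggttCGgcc
Cox8b, chr7:140900397-140900546, minus strand: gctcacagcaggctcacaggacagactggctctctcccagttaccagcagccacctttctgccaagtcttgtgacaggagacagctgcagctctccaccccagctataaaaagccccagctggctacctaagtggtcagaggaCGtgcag
Cox8a, the common isoform, held 17 CpG in this window and had H3K4me3 at 7.42-fold in Veh and 7.24-fold in GSK, LSD1 at 4.01-fold in GSK only and Pol II at 3.54-fold in Veh only. Cox8b, the muscle isoform, held 1 CpG and a TATAAA box and had no peak in any list. Cox8c, a testis isoform, had none either. The CpG contrast of Cox8a and Cox8b did not hold for every isoform pair of complex IV. Over the whole promoter sequence searched for motifs, the ratio of observed to expected CpG was 0.842 at Cox8a and 0.115 at Cox8b. Cox7a1 (0.333) and Cox6b2 (0.432) had low ratios and yet H3K4me3. The ratio was 0.368 at Cox7b, which had H3K4me3, and 0.564 at Cox7b2, which had no peak. The other genes of the set without H3K4me3 were Ndufa4l2, a paralogue of Ndufa4 induced in low oxygen, which had a 3.03-fold H3K4me1 peak in Veh only, and Ndufb4c, which had no peak. Reads that map to several places were not used, and how far near-identical copies of a gene lower its peaks was not tested.

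Complex V is the ATP synthase. All 17 of its genes had H3K4me3, 14 had Pol II in Veh and 11 in GSK, and 9 and 12 had LSD1. H3K4me1 was at 5 and 9, H3K4me2 at 12 and 7, and H3K27ac at 12 and 4, with Atp5a1, Atp5b, Atp5g3, Atp5h, Atp5j2, Atp5md, Atp5o and Atp5pb in Veh only. The strongest Pol II peaks of the whole set that appeared in Veh only were all in this family. Atp5b, the catalytic beta subunit, had one of 6.97-fold (−log10 p of 17.3) at chr10:128083144-128083632, and its H3K4me3 was 6.06-fold in Veh and 5.93-fold in GSK. Atp5g1, a gene of the c ring, had one of 6.53-fold (14.6) and Atp5mpl one of 6.55-fold (13.4). Atp5a1, the alpha subunit, had Pol II in both lists, at 9.97-fold and 7.45-fold, and LSD1 at 6.15-fold and 4.68-fold. At genes with LSD1 in both lists, its fold percentile was lower in GSK at 8 of 9 complex V genes, with a median difference of −29.7, against 3380 of 7575 and 2.28 among all genes. The other families, some of them even or the other way, are listed with the peak strengths further on. Atp5g2, a further c ring gene whose promoter is printed above, was in all 12 lists, with LSD1 at 4.47-fold and 5.95-fold and Pol II at 5.93-fold and 6.54-fold. Atp5l was in 4, with H3K4me3 at 6.74-fold and 6.97-fold and H3K27ac at 3.87-fold and 4.98-fold.

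**Figure D4:**
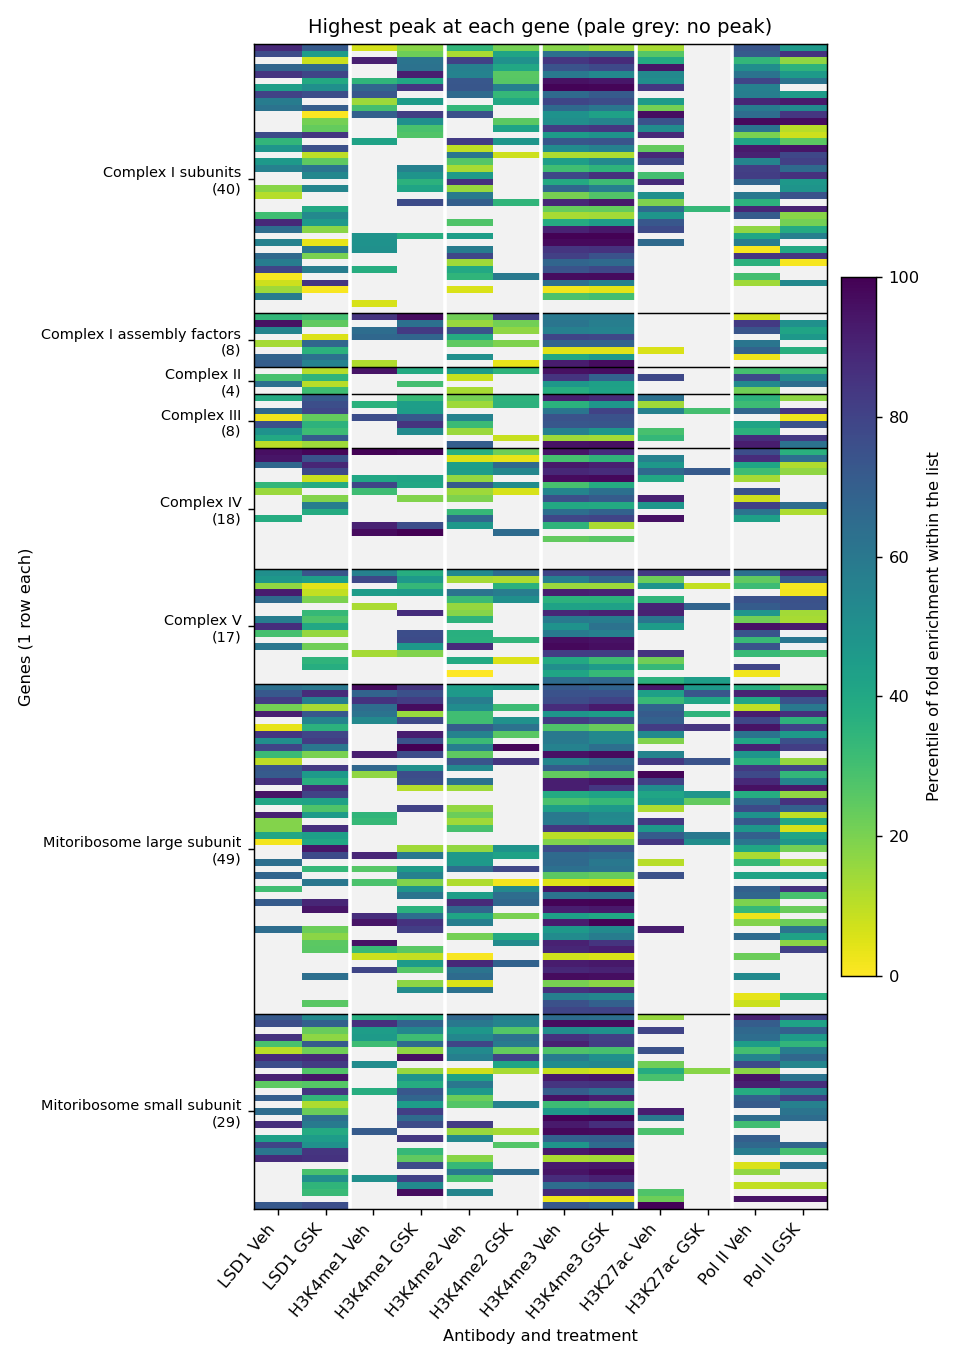
Fold enrichment of the highest peak within 1 kb of a TSS for each of the 173 genes (rows, by family) in the 12 peak lists (columns). Colour gives its percentile among all genes with a peak in that list, and pale grey stands for no peak. The H3K4me3 columns are filled at 166 genes in both treatments, with gaps mostly in complex IV, and the GSK H3K27ac column is filled at 18.

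The ribosomal genes formed the largest share of the set. All 78 of them had H3K4me3 in both treatments. At the 49 Mrpl genes, LSD1 was at 26 in Veh and 34 in GSK, H3K4me1 at 20 and 32, H3K4me2 at 36 and 18, H3K27ac at 24 and 10, and Pol II at 39 and 35. At the 29 Mrps genes, LSD1 was at 17 in Veh (58.6%) and 27 in GSK (93.1%), H3K4me1 at 9 and 23, H3K4me2 at 21 and 13, H3K27ac at 12 and 1, and Pol II at 23 and 20. With lists of equal length, the Mrps counts were 17 and 27 for LSD1 and 9 and 19 for H3K4me1, and the Mrpl counts 25 and 34, and 20 and 27. At that length the H3K4me1 difference was 21.8 points (7.59 to 31.5) over the 78 ribosomal genes. Over the other 95 genes it was 9.47 points (−1.99 to 18.9, which includes no difference). None of the Mrps genes had LSD1 in Veh only (background 4.87%, or 7.23% of genes with H3K4me3), and Mrps17 and Mrps18b had it in neither. The 10 with LSD1 in GSK only (34.5%, background 10.9%, or 16.7% of genes with H3K4me3) were Mrps2, Mrps6, Mrps9, Mrps12, Mrps14, Mrps22, Mrps25, Mrps28, Mrps31 and Mrps34, at 3.76-fold (Mrps6) to 6.68-fold (Mrps28). They were named after their values were seen. No difference between the families was tested.

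Mrpl12, which also binds the mitochondrial RNA polymerase, had LSD1 at 4.48-fold in Veh and 6.52-fold in GSK and Pol II at 4.91-fold and 5.46-fold. Mrps14 had the highest H3K4me3 fold in GSK, 11.9-fold (percentile 99.5) at chr1:160195189-160195888 against 11.1-fold in Veh, with Pol II at 5.99-fold and 4.93-fold and LSD1 in GSK only at 5.52-fold. Mrpl53 was in all 12 lists and Mrps23 in 11, whereas Mrpl16 had H3K4me3 alone, at 7.72-fold and 7.84-fold. Pol II in GSK only was strongest at Mrpl45, 5.81-fold (−log10 p of 12.4) at chr11:97315669-97316045, and next at Mrps11 and Mrpl46, 4.81-fold (9.4), which is 1 peak between a pair of genes that start side by side. At Mrpl genes with Pol II in both lists, the fold percentile was higher in GSK at 9 and lower at 23, against 2313 and 2894 among all genes. At Mrps genes these counts were 10 and 9.

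The strength of the peaks was compared through percentiles, since fold depends on depth. Each gene's highest fold at its TSS windows was ranked among all nuclear protein-coding genes with a peak there in the same list. H3K4me3 had a median percentile of 65.2 in Veh and 65.4 in GSK at the 166 genes. The median was 61.8 for LSD1 in Veh and 44.1 in GSK, 59.4 and 52.7 for Pol II, 51.5 and 53.0 for H3K4me1, 44.0 and 41.3 for H3K4me2, and 52.9 and 47.2 for H3K27ac. The genes behind the 2 medians of an antibody differ, since 45 of the LSD1 genes were in the GSK list only. At the 107 genes with Pol II in both lists the percentile was higher in GSK at 40 and lower at 67, with a median difference of −9.91, against −1.76 at genes with H3K4me3. At the 85 with LSD1 in both, 37 were higher and 48 lower, with a median of −4.07 (95% interval −14.6 to 2.55, which includes no difference), against 2.38 at genes with H3K4me3. By family, LSD1 was higher and lower at 8 and 12 complex I subunit genes, 1 and 4 assembly factor genes and 1 and 1 complex II genes. It was so at 5 and 2 genes of complex III, 3 and 1 of complex IV, 1 and 8 of complex V, 9 and 12 Mrpl and 9 and 8 Mrps genes. In the same order, Pol II gave 12 and 17, 0 and 3, 2 and 1, 2 and 3, 0 and 6, 5 and 5, 9 and 23, and 10 and 9.

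Pol II and LSD1 summits sat closer to the starts than the centres of H3K4me1 peaks. The median Pol II summit lay 52.5 bp downstream of the TSS in Veh and 60.0 bp in GSK, with 87.5% and 87.1% of summits within 250 bp, against 77.1% and 77.2% at genes with H3K4me3. The median LSD1 summit lay 33.0 bp downstream in Veh and 59.5 bp in GSK, and 52.5% and 70.0% were within 250 bp, against 52.9% and 58.4%. At the Mrps genes those shares were 76.5% and 85.2%. The middle of the H3K4me3 peaks lay 195 bp downstream in Veh and 175 bp in GSK, and H3K27ac peaks were narrower than H3K4me3 peaks, with a median width of 343 bp in Veh.

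**Figure D5:**
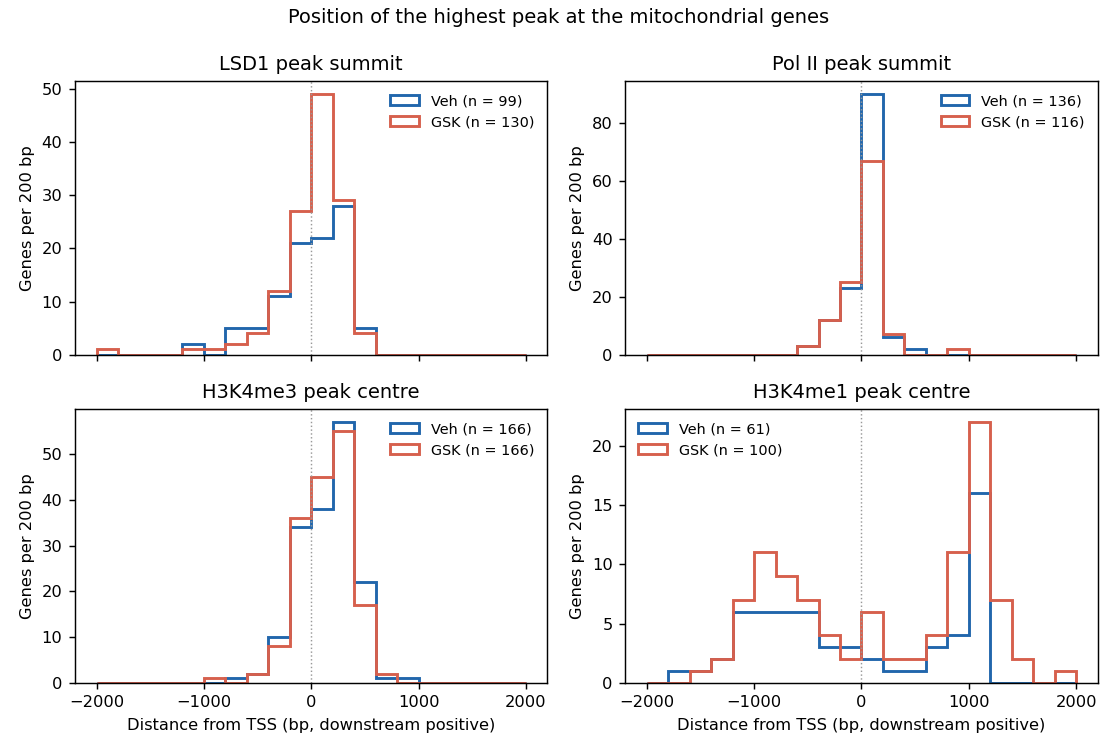
Genes per 200 bp (y axis) by the distance in bp from the TSS (x axis, positive downstream) to the summit of the highest LSD1 or Pol II peak or the centre of the highest H3K4me3 or H3K4me1 peak, in Veh and GSK. Pol II and LSD1 summits gather around the TSS, with 87.5% and 52.5% within 250 bp in Veh, and H3K4me1 centres lie to both sides of it.

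Many of these genes share a promoter region with a neighbour on the opposite strand. A neighbour that starts within 1 kb upstream on the other strand was found for 61 of 173 genes (35.3%), against 11.7% of all genes and 19.1% of genes with H3K4me3, and for 1 of the 18 complex IV genes. In Veh, H3K27ac lay at 43 of these 61 (70.5%) and at 44 of the other 112 (39.3%), and Pol II at 88.5% and 73.2%. The neighbour's own marks are part of these counts, and all 7 genes without H3K4me3 were among the 112. This split, and the one by shared window that follows, was not made over all genes. Among the 103 genes that shared a window with no other TSS, H3K27ac was at 36.9% in Veh and 4.85% in GSK, and H3K4me3 ranked higher, with a median percentile of 81.6 in Veh and 80.1 in GSK, against 45.8 and 46.7 at genes with a shared window. Within the set, Mrpl47 and Ndufb5, and Mrps11 and Mrpl46, are such pairs, and each pair shares its peaks. Across the 12 lists a gene of the set had a peak in a median of 7, against 5 for all genes and 8 for genes with H3K4me3.

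Related genes of the same organelle were counted with the same windows. All of them had H3K4me3 in both treatments, so the shares among genes with H3K4me3 given above (for LSD1 70.0% and 79.5%, for Pol II 58.3% and 49.4%) are their background. Of 30 assembly factor genes with other symbols, such as Surf1 and Sco1 for complex IV, LSD1 was at 26 in Veh and 29 in GSK, H3K4me1 at 13 and 18, H3K4me2 at 23 and 9, H3K27ac at 19 and 8, and Pol II at 26 and 21. Of 13 citric acid cycle genes, LSD1 was at 7 and 12, H3K4me1 at 1 and 7, H3K4me2 at 11 and 8, H3K27ac at 7 and 4, and Pol II at 11 and 6. Protein import genes had the reverse order for LSD1, with 11 of 15 in Veh and 9 in GSK, with H3K4me1 at 3 and 7, H3K4me2 at 12 and 8, H3K27ac at 8 and 3, and Pol II at 15 and 7. Of 15 regulator genes such as Nrf1 and Gabpa, LSD1 was at 10 and 12, H3K4me1 at 8 and 9, H3K4me2 at 6 and 5, H3K27ac at 9 and 3, and Pol II at 11 and 8. The 5 ribosomal protein genes with other names (Dap3, Gadd45gip1, Ptcd3, Aurkaip1 and Chchd1) had LSD1 and Pol II at 5 of 5 in both treatments, H3K4me2 and H3K27ac at 4 in Veh and 0 in GSK, and H3K4me1 at 0 and 2. Cyc1 (cytochrome c1, a complex III subunit) and Cycs (cytochrome c) had LSD1 at 2 and 1 and Pol II at 1 and 2.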

How the data were processed

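The authors aligned paired-end reads to mm10 with Bowtie2, keeping unique alignments without PCR duplicates, prepared coverage with bedtools and called peaks with MACS2, as their methods and processing notes name them. The edgeR comparisons the methods describe were not used here. Their methods name input as the control and random picking of equal read numbers for comparing signals. Whether peaks were called on the equalised reads, and which input was used for which list, was not given in the sources used here, nor which of the 2 sequencer types read which library. The ChIP-seq came from 1 of 2 repeated experiments, and the other was not analysed here. The deposited lists give each peak a fold enrichment (a ratio over local background), −log10 p and −log10 q, and a score. In the text, the fold enrichment was used for levels and −log10 p for ranking and for cutting lists to equal length, and the deposited score was not used. Peak strength was the percentile of a gene's highest fold among all nuclear protein-coding genes with a peak in that list.

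Peaks were joined to RefSeq TSS windows of 1 kb to each side, with a minimum overlap of 1 bp, using Python 3.11.15, numpy 2.4.6, pandas 2.3.3, scipy 1.17.1 and matplotlib 3.10.9, after tests on simulated data. Chromosomes Y and M were left out. With 1 library per group no p-value was computed. The members and lists were chosen with earlier results of these data known. Genes were named if they lacked H3K4me3 in both treatments, had the highest fold of the set in a list, were among the 3 strongest LSD1 or Pol II peaks seen in 1 treatment in each direction, had the most or fewest lists in their family, or were listed by role (Sdha to Sdhd, Ndufs1, Ndufv1, Ndufab1, Ndufa4, Ndufa4l2, Uqcrc1, Uqcrfs1, the complex IV isoforms, Atp5a1, Atp5b and Mrpl12). Genes listed for H3K27ac, H3K4me1 or LSD1 in one class, and promoters printed for their motifs, were chosen after their values were seen. One result that the rule would name is not reported here.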

Additional observations from a re-analysis of the deposited data

How the results depend on the processing

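Of 306 comparisons of 42 results with an alternative setting, 252 moved by less than their counting interval, or for counts by less than 1.5 times, 53 moved and 1 turned. Cutting the longer list of each pair to the length of the shorter turned the H3K4me2 difference to 2.31 points and gave a H3K27ac difference of −9.83 points, shares of 50.3% for GSK H3K4me1, 37.6% for Veh H3K4me2 and 20.2% for Veh H3K27ac, H3K4me2 at 25 genes in Veh only and 29 in GSK only, H3K27ac at 24 and 7, and H3K4me3 in Veh only at 1. A −log10 q of at least 4 gave 35.3% and 45.7% for LSD1 in Veh and GSK, 28.3% for Veh H3K4me1, 59.0% and 27.7% for H3K4me2, 60.1% and 42.2% for Pol II, and differences of −35.3 points for H3K27ac and −17.9 for Pol II. Windows of 500 bp gave 12.7% and 18.5% for H3K4me1, a difference of 5.78 points with 8 genes in Veh only and 18 in GSK only, and 59.5% and 32.4% for H3K4me2. Windows of 2.5 kb gave 53.8% and 76.3% for H3K4me1, H3K4me3 in GSK only at 1 gene and −40.5 points for H3K27ac. Requiring the summit or centre in the window gave 20.8% and 34.1% for H3K4me1, a difference of 13.3 points and 33 genes in GSK only. Among the 103 genes that shared no window, H3K27ac was at 36.9% and 4.85% (−32.0 points, 33 in Veh only), LSD1 in Veh only at 8 and GSK only at 25, H3K4me1 in GSK only at 31, the H3K4me2 difference −39.8 points with 6 in GSK only, Pol II in Veh only at 18 and GSK only at 5, and the H3K4me3 percentiles 81.6 and 80.1. Ranking by −log10 p gave median percentiles of 35.9 and 42.2 for H3K4me1, 33.5 and 28.6 for H3K4me2, 76.5 and 75.7 for H3K4me3 and 43.8 for Veh H3K27ac. Using 1 TSS per gene, each TSS window as the unit, or GENCODE M21 start sites (169 genes matched, chosen after seeing the data) moved no result. Apart from the cut to equal length, the shares and differences under these settings were computed at the mitochondrial genes alone and have no background. The cause of each move was not tested where the setting's own construction (fewer peaks, genes or bases) does not show it. No paired analysis was possible because each group had 1 library, and for the same reason no library could be left out.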
